A study of Musca domestica with 24 samples.

Results

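Serpin genes of the house fly, Musca domestica, were followed through poly(A) RNA-seq libraries made from the heads and abdomens of single flies. The set holds every gene whose symbol begins with SPN. Of the 16540 genes in the table of each tissue, 3 carry that prefix in capitals, SPN9 (NCBI gene ID 101896116), SPN13 (101896278) and SPN15 (101900963), and Spn2 (101894370) was added by ignoring case, which makes 4. Genes that the tables list by a LOC identifier alone are not in the set, whatever protein they encode. SPN15 is assigned to Muller element B and Spn2 to Muller element C, the names of chromosome arms conserved among flies, and the tables give no element for SPN9 or SPN13. RefSeq lists all 4 as protein coding under the same symbols.

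Serpins are proteins that mostly act as inhibitors of serine proteases. An inhibitory serpin offers an exposed loop as bait, and the protease that cuts it is trapped in a covalent complex and distorted. In insects, serpins made by the fat body and blood cells circulate in the haemolymph and hold back the protease cascades that lead to Toll signalling and to melanin formation. In Drosophila, serpins are also found among the seminal fluid proteins of the male accessory gland. The separate roles of the 4 house fly genes were not taken from any source here, so each is described by its measurements alone.

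The study asked what loss of transformer activity does to each sex. Md-tra, the transformer gene of this fly, is required for the female fate, and GFP, a jellyfish gene that flies lack, was the control target of the double-stranded RNA. Each tissue had 4 groups of 3 libraries, 24 in all, from a strain labelled IIIM (3-6), in which the male determiner lies on the third chromosome. N flies received Md-tra RNAi and are genotypic females turned into phenotypic males by the sample titles. SR flies received Md-tra RNAi and are genotypic males by the titles. GFP females and GFP males received GFP RNAi and kept the sex of their genotype. The column headers of the deposited comparisons have N and SR the other way round, as normal and sex-reversed males, so the library codes N and SR are used as names. Every library came from 1 fly, no age is given, and the knockdown of Md-tra itself was not analysed here.

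Values are normalized counts, the reads of a gene divided by 1 size factor per library, and the tissues were scaled separately. Depth differed between groups. Abdomen libraries held 2689265 to 16113838 reads in N, 24100066 to 41657177 in SR, 56719614 to 77407229 in GFP females and 20916287 to 31364368 in GFP males, and head libraries 12080603 to 79454339. In N abdomens of replicates 1 and 3, 1 read was worth 7.83 and 7.77 normalized counts. Among heads, SR replicate 2 stood apart: the lysozyme gene had 7871 reads there and at most 10 in any of the other 11 heads, and the deposited head means give that library no weight. The immune genes attacin and diptericin lay within the range of the other heads there, and defensin-1, at 3800 normalized counts, below all of them. Of the tissue markers, bcd, the maternal determinant bicoid, stood at 2969, 2225 and 3315 normalized counts in GFP female abdomens, had 3 reads in 1 N abdomen and none in the other male abdomens, and had at most 3 reads in any head. The marker yp3, a yolk protein gene, did not mark female abdomens in this way. GFP female abdomens held 15574, 21.1 and 254 normalized counts, and SR abdomens 6253, 24021 and 7747. The groups overlapped, and SR was called higher (log2 difference 4.57 ± 1.86 (SE), limma, Benjamini-Hochberg adjusted p = 0.0439). Between the control sexes yp3 was not called in abdomens (-0.69 for females minus males, limma, Benjamini-Hochberg adjusted p = 0.743).

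SPN9 was abundant in male abdomens and nearly absent from GFP female abdomens. Its normalized counts were 2021, 1452 and 2005 in N, 1149, 1642 and 1672 in SR, 41.7, 5.28 and 1.71 in GFP females, with 2371, 959.9 and 1641 in GFP males. Every phenotypic male lay above every GFP female, and the 3 male groups overlapped one another. On the means, GFP females were 102-fold lower than GFP males at 16.2 ± 22.1 against 1657 ± 705.5 (SD, n = 3 each), a log2 difference of -7.43 ± 0.79 (SE) in values + 1 (limma, Benjamini-Hochberg adjusted p = 1.26e-05). N stood 113-fold and SR 91.7-fold above GFP females (limma, Benjamini-Hochberg adjusted p = 8.56e-06 and 1.47e-05). The mean of GFP females rests on replicate 1, and without it was 3.49, which lies 474-fold below GFP males, with N 523-fold and SR 426-fold above it. In bulk RNA of a whole abdomen, fewer cells of a type and less RNA per cell cannot be told apart.

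Spn2 was the serpin closest to absence in GFP female abdomens. Its normalized counts were 31.3, 40.5 and 15.5 in N, 15.7, 14.5 and 23.4 in SR, 0.619, 0 and 0 in GFP females, with 231, 20.1 and 160 in GFP males. The GFP female values rest on 3 reads in replicate 1 and none in replicates 2 and 3, where 3 reads would be worth 0.720 and 0.853 normalized counts. GFP females lay below every male, and the 3 male groups overlapped. Summed over libraries, 3 reads in GFP females against 349 in GFP males gave a level 492-fold lower, with a 95% counting interval of 167 to 2397 that covers counting error only. N was 148-fold (95% counting interval 45.9 to 756) and SR 71.4-fold (23.4 to 355) above GFP females on the same measure. By limma with Benjamini-Hochberg adjustment the adjusted p was 5.25e-05 for GFP females against GFP males, 0.000445 for N and 0.00126 for SR against GFP females.

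SPN13 was lower in GFP female than in GFP male abdomens, and N lay above SR by a narrow margin. Its normalized counts were 15.7, 76.0 and 233 in N, 2.61, 13.9 and 10.6 in SR, 18.2, 0 and 0.569 in GFP females, with 116, 49.8 and 50.9 in GFP males. These are small numbers of reads, 2, 45 and 30 in N and 3, 23 and 10 in SR. N overlapped both control groups, SR lay below every N and every GFP male library, and SR overlapped GFP females. The gap between N and SR rests on N replicate 1, at 15.7 from 2 reads, against 13.9 in SR replicate 2. In that N library 1 read was worth 7.83 normalized counts. The log2 difference of N from SR, 2.97 ± 1.22 (SE), did not pass (limma, Benjamini-Hochberg adjusted p = 0.123). GFP females differed from GFP males by -4.44 ± 1.22 (log2, SE) and N from GFP females by 4.43 ± 1.22 (limma, Benjamini-Hochberg adjusted p = 0.0064 and 0.0065). EdgeR on the recovered reads called neither of these (Benjamini-Hochberg adjusted p = 0.083 and 0.0523), and every other alternative run kept both calls. The authors' deposited table gives GFP males over GFP females as 3.53 with adjusted p = 0.0186. SR did not pass against GFP females, at 1.46 ± 1.22 with a 95% interval of -1.23 to 4.15 (limma, Benjamini-Hochberg adjusted p = 0.286), and passed only without GFP female replicate 1 (adjusted p = 0.0381). Against GFP males, which SR did not overlap, SR was lower on the means, 9.05 ± 5.80 against 72.3 ± 38.0 (SD, n = 3 each), and this missed the threshold with a log2 difference of -2.98 ± 1.22 (limma, Benjamini-Hochberg adjusted p = 0.681).

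SPN15 ran the other way. Its normalized counts were 705, 464 and 505 in N, 1144, 1186 and 1141 in SR, 1946, 2836 and 2043 in GFP females, with 1184, 895 and 1503 in GFP males. GFP females were the highest group, N the lowest, and neither overlapped any other group, while SR lay inside the range of GFP males. GFP females had 1.91 times the mean of GFP males, 2275 ± 489 against 1194 ± 304 (SD, n = 3 each), a log2 difference of 0.94 ± 0.23 (limma, Benjamini-Hochberg adjusted p = 0.00372). N fell to 558 ± 129, 4.08-fold below GFP females, and SR to 1157 ± 25.0, 1.97-fold below them (limma, Benjamini-Hochberg adjusted p = 1.9e-05 and 0.00354). These sizes depend on the processing. In the alternative runs other than those without 1 library, GFP females minus GFP males ran from 0.92 to 1.47 (log2). Against GFP females the log2 difference ran from -2.57 to -2.02 in N and from -1.48 to -0.95 in SR. SPN15 was also the serpin that separated N from the other males, 2.14-fold below GFP males and 2.07-fold below SR (limma, Benjamini-Hochberg adjusted p = 0.0271 and 0.0176). The N values rest on 90, 275 and 65 reads.

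The lower SPN15 level in N abdomens kept its size but not always its call when libraries were left out. Against GFP males the log2 difference stayed between -1.28 and -0.91 over the 6 fits without 1 library each, and the adjusted p passed 0.05 without GFP male replicate 1 (0.0887), GFP male replicate 3 (0.072) or N replicate 3 (0.0694). Against SR the range was -1.25 to -0.95, and the call was lost without SR replicate 2 (limma, Benjamini-Hochberg adjusted p = 0.0589). With N replicate 2 as the only N library, the deepest of the 3, the differences were -1.33 from GFP males and -1.31 from SR, with adjusted p = 0.203 and 0.104. Fits of only the 6 libraries compared gave adjusted p = 0.0764 against GFP males and 0.0807 against SR (limma, Benjamini-Hochberg). Fits blocked by the code number of the libraries gave 0.124 and 0.096 (limma, Benjamini-Hochberg). That block left 3 and 185 genes called in all, in place of 1113 and 1832. Code number 1 occurs only in GFP males and SR and 4 only in GFP females and N, so the block overlaps with the groups.

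**Figure D1:**
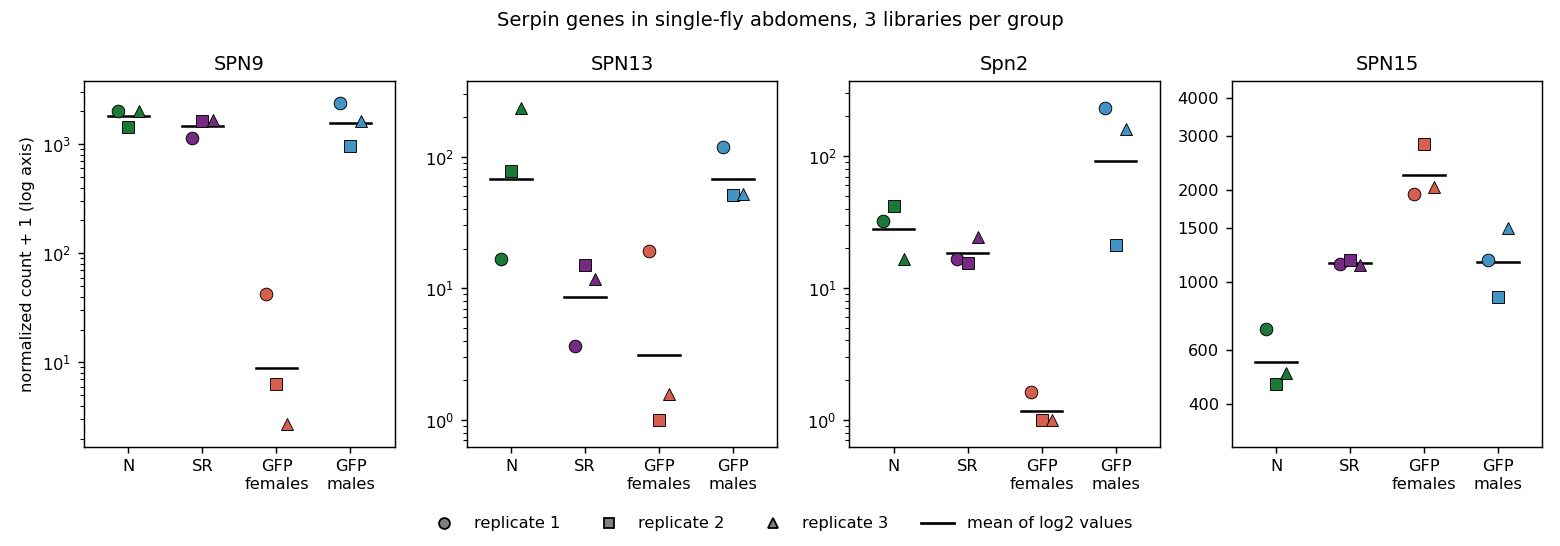
Normalized count + 1 on a log axis for each of the 4 serpin genes in abdomens, by group, with 1 point per library (circle, square and triangle for replicates 1, 2 and 3) and a bar at the mean of the log2 values of each group. SPN9 and Spn2 of GFP females lie below all males, SPN13 is low in SR as well as in GFP females, and SPN15 is highest in GFP females and lowest in N.

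Set against all genes of the abdomen, the sex difference of the serpins is 1 among very many. Of 4 serpins, 3 were lower and 1 was higher in GFP females than in GFP males, where 77.7% of the 12537 genes tested were called, 44.3% lower and 33.4% higher. Against GFP females, N had 3 of 4 serpins higher and 1 lower, where 76.3% of genes were called, 42.1% higher and 34.1% lower. SR had 2 higher, 1 lower and 1 not called, where 76.5% of genes were called, 43.7% higher and 32.8% lower. These 3 comparisons share the GFP female libraries. The median log2 difference of all genes between GFP females and GFP males was -0.61, and relative to it SPN9 stood at -6.83, Spn2 at -5.69, SPN13 at -3.84 and SPN15 at 1.55. Rescaling by TMM, another library scaling, moved the median of all genes by 0.51 in this comparison, by -0.50 for N and by -0.48 for SR against GFP females, and no serpin called in these comparisons changed direction or lost its call.

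Among phenotypic males of the abdomen few serpins differed. N against GFP males called 1 of 4 serpins, SPN15, which was lower, where 8.88% of genes were called and 3.76% were lower. N against SR called 1 of 4, again SPN15 and again lower, where 14.6% of genes were called and 6.05% were lower. SR against GFP males called 0 of 4, with 0.16% of genes called. Unadjusted, 2 serpins had p under 0.05 by limma, SPN13 and Spn2, as did 815 of the 12537 genes. EdgeR called 0 serpins and 2 genes in all. DESeq2 called 1 serpin, Spn2, and 268 genes in all. For SPN9 the 95% interval of the log2 difference from GFP males was -1.52 to 1.96 in N and -1.82 to 1.66 in SR, which leaves room for a difference of over 2-fold either way. For SPN15 in SR it was -0.53 to 0.50. Spn2 averaged 29.1 ± 12.6 in N and 17.9 ± 4.84 in SR against 137 ± 107 in GFP males (SD, n = 3 each). GFP male replicate 2, at 20.1, lay inside the ranges of N and SR.

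The change with Md-tra RNAi was also compared between genotypes. By the titles, this is the difference of N from GFP females minus the difference of SR from GFP males, and all 4 serpins passed, with log2 values of 7.73 ± 1.11 for SPN9, 6.90 ± 1.17 for Spn2, 7.41 ± 1.72 for SPN13 and -2.01 ± 0.33 for SPN15 (SE), where 67.2% of genes were called. The limma Benjamini-Hochberg adjusted p was 0.00017, 0.000467, 0.00319 and 0.000385 in that order. By the headers, with N and SR exchanged, SPN9 and Spn2 passed, at 7.13 ± 1.11 and 5.69 ± 1.17 (limma, Benjamini-Hochberg adjusted p = 0.000367 and 0.00183), where 62.9% of genes were called. SPN13 and SPN15 did not, at 1.47 ± 1.72 and 0.13 ± 0.33 (limma, Benjamini-Hochberg adjusted p = 0.468 and 0.738). So for SPN13 and SPN15, unlike SPN9 and Spn2, the call depends on which assignment of N and SR holds.

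In heads no serpin passed by limma in any of the 6 comparisons of groups. SPN9 had normalized counts of 2865, 2087 and 2103 in N, 1456, 1625 and 1970 in SR, 3965, 2475 and 2025 in GFP females, with 2792, 2132 and 2574 in GFP males. All 3 SR heads lay below all the other heads. The means were 2352 ± 445 in N, 1683 ± 262 in SR, 2822 ± 1016 in GFP females and 2499 ± 336 in GFP males (SD, n = 3 each). The log2 difference of SR was -0.70 ± 0.25 from GFP females and -0.57 ± 0.25 from GFP males, and that of N from SR was 0.48 ± 0.25 (SE; limma, Benjamini-Hochberg adjusted p = 0.212, 0.186 and 0.645). Between GFP females and GFP males the log2 difference was 0.13 with a 95% interval of -0.43 to 0.68.

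SPN15 in heads stood at 1720, 1420 and 796 in N, 1087, 527 and 791 in SR, 1407, 1626 and 1862 in GFP females, with 949, 1004 and 1003 in GFP males. All 3 GFP females lay above all GFP males and all SR heads, and N overlapped every other group. GFP females were 1.66-fold above GFP males, 1632 ± 228 against 985 ± 31.6 (SD, n = 3 each), and the fit of all 12 heads did not call it (limma, Benjamini-Hochberg adjusted p = 0.108), whereas a fit of these 6 heads alone did (adjusted p = 0.0334). The authors' deposited table gives this contrast as males over females, a log2 fold change of -0.73 with adjusted p = 0.0385. SR was 2.04-fold below GFP females (limma, Benjamini-Hochberg adjusted p = 0.149), and without SR replicate 2, the lowest of the 12 heads, the adjusted p remained above 0.05. DESeq2 on the recovered reads called SPN15 here (adjusted p = 0.0366), and the authors' deposited table, whose head means give no weight to SR replicate 2, does not (their sex-reversed males over GFP females, -0.80, adjusted p = 0.138).

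SPN13 varied more than any other serpin among heads. Its normalized counts were 69.2, 85.6 and 354 in N, 80.8, 50.6 and 33.9 in SR, 3202, 33.4 and 946 in GFP females, with 162, 355 and 56.3 in GFP males. The highest and the lowest of all 12 heads were GFP females, 96.0-fold apart. The mean of GFP females was 7.29-fold that of GFP males, 1394 ± 1631 against 191 ± 151 (SD, n = 3 each), and the log2 difference of 1.66 ± 1.41 was not called (limma, Benjamini-Hochberg adjusted p = 0.407). The high mean of GFP females rests on replicate 1. Without it the mean was 489, 2.56-fold that of GFP males, with a log2 difference of 0.27 (limma, Benjamini-Hochberg adjusted p = 0.892). The difference was called without GFP female replicate 2, at 3.54 (limma adjusted p = 0.0462), by DESeq2 on the recovered reads (adjusted p = 0.0274), and in the authors' deposited table, with males over females at -2.86 and adjusted p = 0.03. The SPN13 mean of SR was 25.3-fold below that of GFP females, or 8.88-fold without GFP female replicate 1, not called by limma (Benjamini-Hochberg adjusted p = 0.305) and called by DESeq2 (adjusted p = 0.00144). The authors' deposited table gives their sex-reversed males over GFP females as -4.60 with adjusted p = 0.00947.

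Spn2 in heads had 491, 738 and 157 in N, 351, 64.2 and 262 in SR, 1112, 78.7 and 457 in GFP females, with 318, 129 and 330 in GFP males. All 4 groups overlapped, and the largest mean ratio was 2.43, GFP females over SR (limma, Benjamini-Hochberg adjusted p = 0.69). The lowest value was that of SR replicate 2, and without it SR stood 0.35 above GFP males on the log2 scale in place of 0.39 below.

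**Figure D2:**
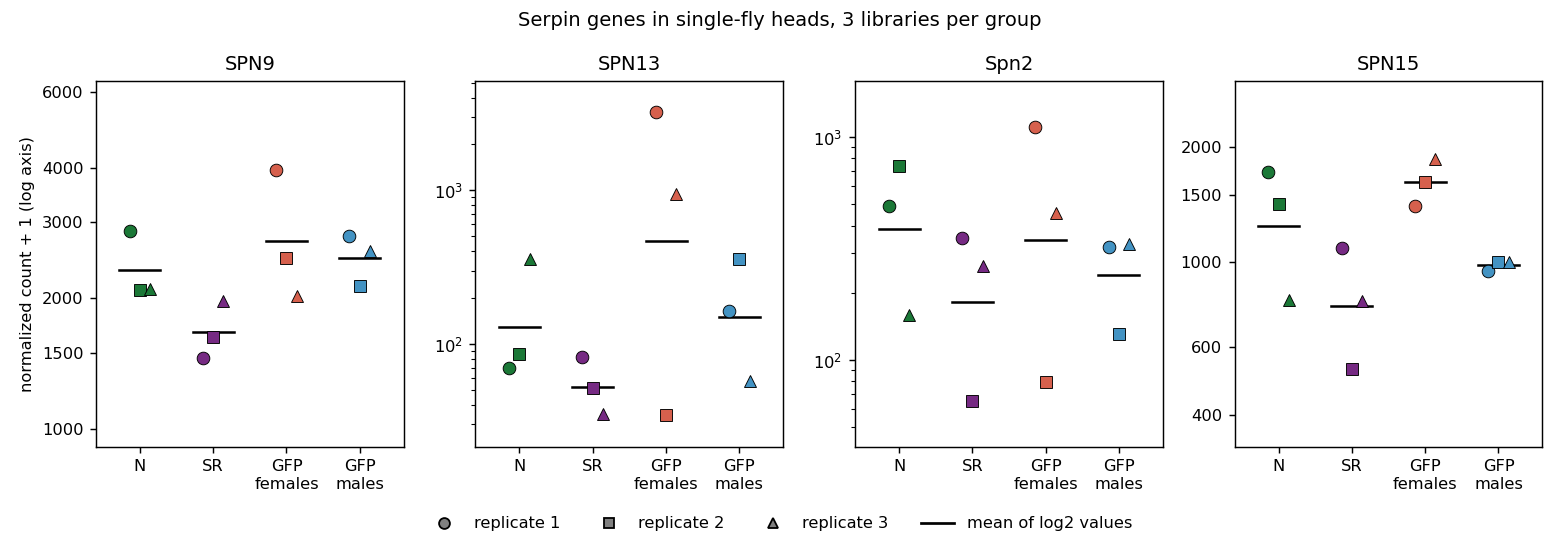
Normalized count + 1 on a log axis for each serpin gene in heads, by group, drawn as for abdomens. The 3 SR heads lie below all others for SPN9, GFP females lie above GFP males for SPN15, and the 3 GFP females spread over the whole range of SPN13.

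With 0 of 4 serpins called by limma in each comparison of heads, the share of the 12237 genes called was 25.6% between GFP females and GFP males, 0.907% for N and 0.163% for SR against GFP females, 11.7% for N and 4.49% for SR against GFP males, and 0.302% for N against SR. At an unadjusted p under 0.05 limma had SPN15 in 3 comparisons, SPN9 in 2 and SPN13 in 1. Of the 12237 genes, 4965 had such a p between GFP females and GFP males and 1966 between SR and GFP females. The counts were 3071 between SR and GFP males and 1001 between N and SR. EdgeR called 0 of 4 in each. DESeq2 called SPN13 between GFP females and GFP males, where it called 4343 genes. It called SPN13 and SPN15 between SR and GFP females, where it called 871 genes. In the comparison of the RNAi change between genotypes 0 of 4 were called by either assignment, with 2.42% of genes called by the titles and 11.1% by the headers. There SPN15 came nearest, at -1.42 ± 0.44 by the headers (limma, Benjamini-Hochberg adjusted p = 0.0599). It passed by DESeq2 (adjusted p = 0.0157), as did SPN13 (0.0219), where DESeq2 called 2904 genes. SPN15 also passed by limma without GFP female replicate 1 (0.0485) or N replicate 3 (0.0255).

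**Figure D3:**
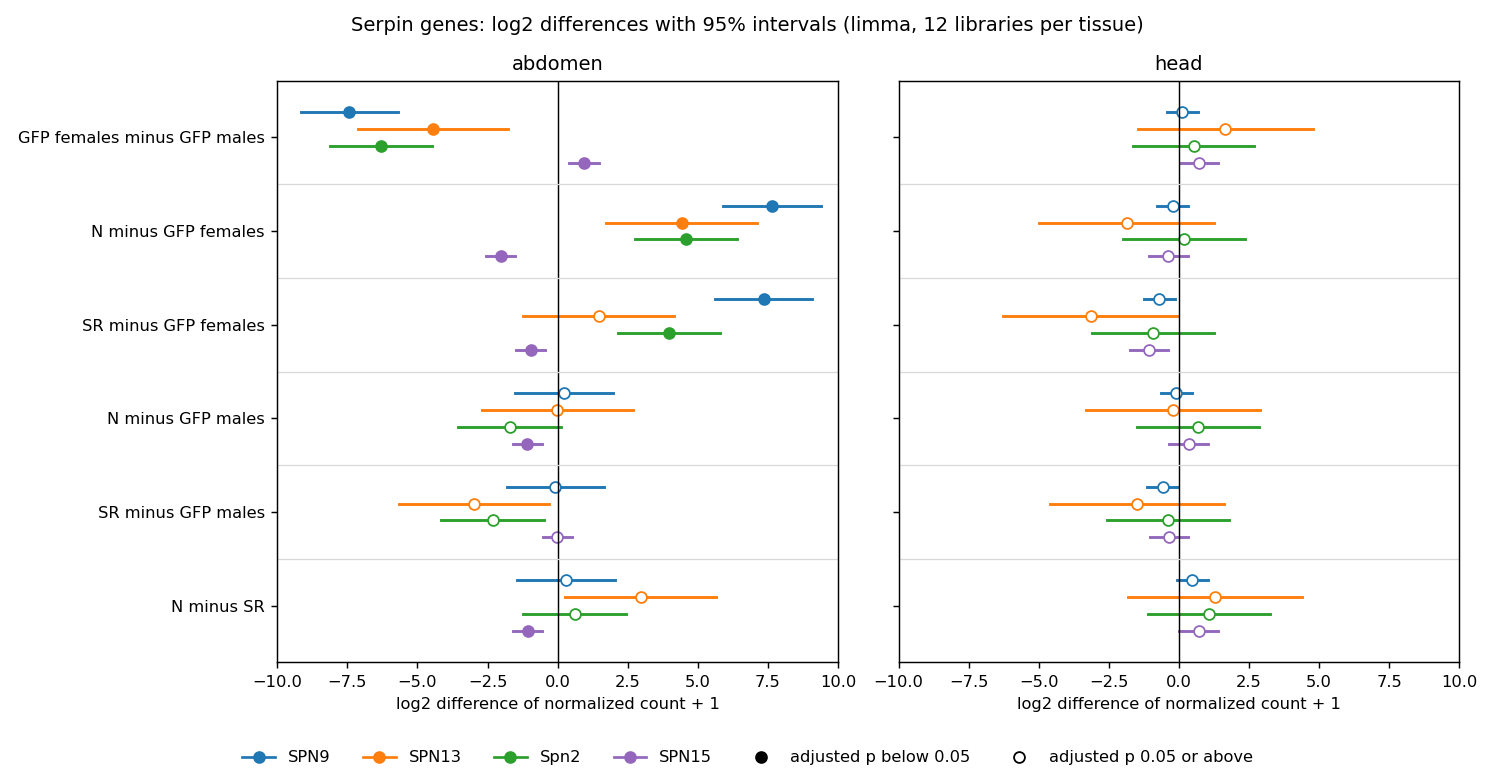
Log2 differences of the 4 serpins (first group minus second) with 95% intervals from limma, in abdomens on the left and heads on the right, with filled circles where the adjusted p was below 0.05. In abdomens 3 serpins are below 0 for GFP females minus GFP males and SPN15 is above it, and in heads all circles are open.

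The tables were normalized separately, so head and abdomen were set side by side in RPM, reads scaled to a library total of 1000000, with no test. SPN9 took a like share of head and abdomen libraries in the male groups, 73.2 against 81.0 RPM on average in N, 51.3 against 58.3 in SR and 84.6 against 58.8 in GFP males. In GFP females it took 77.1 in heads against 1.01 in abdomens. Spn2 was higher in every head group on the means, 14.5 against 1.23 in N, 7.35 against 0.699 in SR, 15.2 against 0.0129 in GFP females and 8.73 against 4.75 in GFP males. SPN13 had 5.40 in heads against 4.81 in abdomens of N, 1.70 against 0.356 in SR, 38.2 against 0.391 in GFP females and 6.55 against 2.56 in GFP males. Without GFP female replicate 1 those females had 14.8 in heads against 0.0176 in abdomens for SPN13, and 63.0 against 0.214 for SPN9. SPN15 was lower in heads than in abdomens of GFP females, 45.5 against 140, of SR, 25.2 against 45.3, and of GFP males, 33.4 against 43.1, and higher in heads of N, 40.8 against 24.7. In normalized counts, where GFP females had the lowest means of SPN9, Spn2 and SPN13 among abdomens, they had the highest means of the 4 groups for every serpin among heads. Without GFP female replicate 1 this held in heads for SPN13 and SPN15 only: the GFP female mean was then 2250.0 for SPN9, below N and GFP males, and 268 for Spn2, below N. With all libraries limma called no serpin between groups of heads, and the share of all genes ranked in this way was not counted. The log2 difference of Spn2 in heads between N and GFP females was 0.17 with all libraries, on which scale N was the higher.

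**Figure D4:**
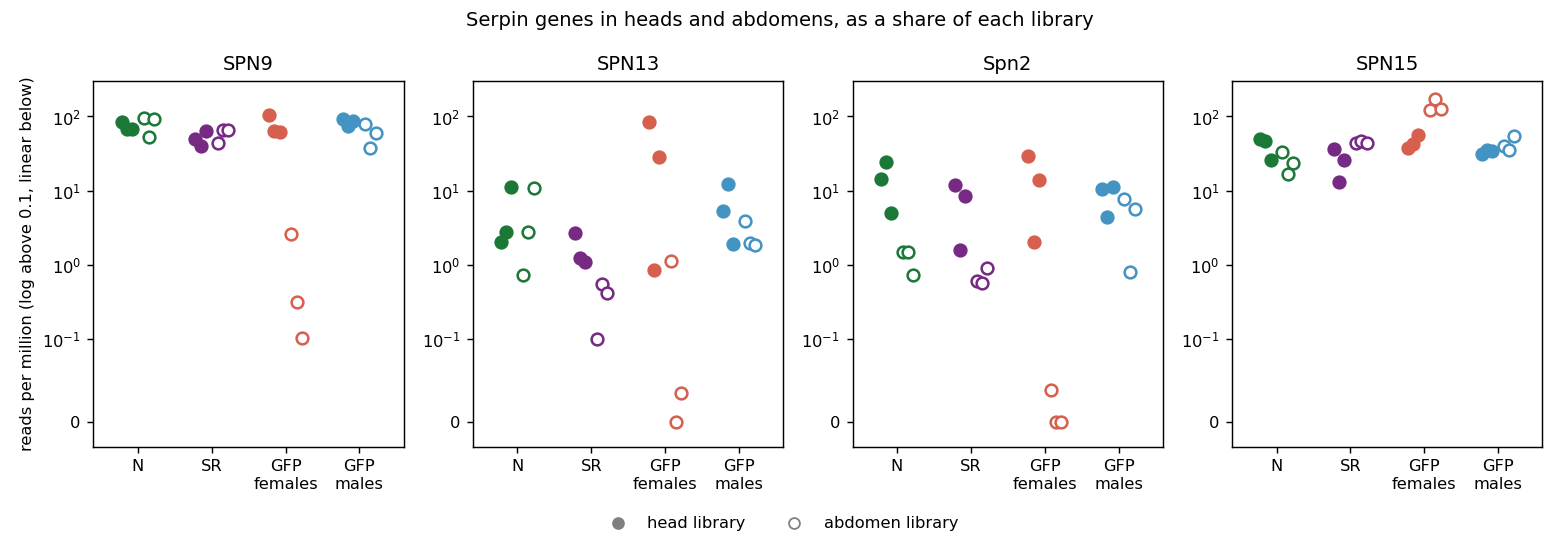
RPM of each library (log scale above 0.1, linear below) for the 4 serpins, with filled circles for heads and open circles for abdomens in each group. Open circles of GFP females lie below all their filled circles for SPN9 and Spn2 and above them for SPN15, and for SPN13 the highest open circle lies just above the lowest filled one.

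Within GFP females, replicate 1 held the same place in both tissues for every serpin. It had the highest SPN9, SPN13 and Spn2 of its group in the head and in the abdomen, and the lowest SPN15 in each. For Spn2 in the abdomen this rests on 3 reads against 0 and 0, in the deepest library of the group. The share of all genes that place replicate 1 at the same end in both tissues was not counted. Replicate 1 also had the most reads of the yolk protein gene yp3, at 192977 normalized counts in the head and 15574 in the abdomen, against 2141 and 21.1 in replicate 2 and 28506 and 254 in replicate 3. The gene listed as para-like, high in the 9 male abdomens at 4522 to 16336, stood at 446 in the abdomen of replicate 1 against 24.7 and 34.4 in replicates 2 and 3. Other genes did not all follow. Of attacin, defensin-1, diptericin and lysozyme, only defensin-1 was highest in replicate 1 in both tissues of these females. Attacin in the head, and diptericin and lysozyme in both tissues, were highest in replicate 2, and attacin in the abdomen in replicate 1. The head and abdomen libraries of a replicate carry the same code number, and the labels do not say that a number marks 1 fly. The head library of replicate 1 was made from 1.2 µg of RNA and the others from 1.5 µg. What part these differences between the GFP females have in the serpin values was not tested.

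The serpins were also compared with one another, as a description over the 12 libraries of a tissue, which share size factors and, in abdomens, the gap between GFP females and males. In abdomens Pearson's r of log2 values was 0.88 between SPN9 and Spn2, 0.73 between SPN9 and SPN13 and -0.74 between SPN9 and SPN15. Over the 9 male abdomens alone these were 0.46, 0.39 and -0.07, so most of the likeness lay in the gap between the sexes. In heads the highest r was 0.54, between SPN15 and Spn2, and it was 0.85 over the 9 heads other than those of GFP females.

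By the same measure, the genes with a symbol that came nearest to SPN9 in abdomens were the cytochrome P450 genes CYP12A2 (r = 0.99) and CYP12A1 (r = 0.98), with 0.28 and -0.06 over the 9 male abdomens. Genes with a symbol were few, 44 or 45 in abdomens and 48 in heads, of 10247 or 10248 and 10131 genes compared. Nearest to Spn2 were diptericin, an antibacterial peptide gene, at 0.92 (0.79 over the 9 males) and the small heat shock gene hsp20 at 0.90 (0.51). Nearest to SPN13 were defensin-1, another antimicrobial peptide gene, at 0.80 (0.57) and CYB2 at 0.78 (0.46). Nearest to SPN15 were the chaperonin subunit gene CCT-eta at 0.87 (0.71) and the nuclear receptor gene HR96 at 0.79 (0.41). In heads, among genes with a symbol, Spn2 was again nearest to an antimicrobial peptide gene, defensin-1, at 0.83 over 12 heads and 0.89 without GFP females. SPN15 was nearest to CYP6G4 (0.86) and the esterase gene MdaE7 (0.83) there, and SPN9 and SPN13 had no gene with a symbol above 0.54. Among all genes, LOC101888167 was nearest to SPN9 in abdomens (r = 0.99, and 0.50 over the 9 males) and LOC101895608 to SPN15 in heads (0.95 with and without GFP females). Nearest to Spn2 among all genes were LOC109614243 in abdomens (0.98, and 0.93 over the 9 males) and LOC101895182 in heads (0.93, and 0.92 without GFP females).

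Other genes of insect immunity with a symbol were attacin, defensin-1, diptericin and lysozyme, effectors that act on bacteria. In abdomens all 4 were lower in GFP females than in GFP males, with a median log2 difference of -6.34, where 44.3% of all genes were lower. The median of the 4 serpins was -5.37, which pools SPN15 at 0.94 with 3 lower genes. Diptericin, for example, stood at 15.1, 20.7 and 1.14 normalized counts in GFP females against 2484, 125 and 430.0 in GFP males (limma, Benjamini-Hochberg adjusted p = 0.00158). Against GFP females, 3 of the 4 effectors were higher in N and 4 of 4 in SR, where 42.1% and 43.7% of all genes were higher. Among males of the abdomen, and in all 6 comparisons of heads, 0 of 4 effectors passed by limma. The spread between flies of 1 group was wide, as in attacin of GFP male abdomens with 6993, 99.7 and 378. Unlike these 4 effectors, SPN15 was higher in GFP female abdomens, and the difference between them was not tested.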

How the data were processed

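Poly(A) RNA of heads and abdomens dissected from single flies was made into stranded libraries, per the labels' protocols, from 1.5 µg of RNA (1.2 µg for 1 head). DESeq2 1.16.1, HTSeq 0.9.1, HISAT2 and CASAVA 1.8 are listed, without roles, in the submitters' processing notes, and the genome build is not given in the sources used here. For each tissue the authors deposited normalized counts, a signal of reads divided by 1 size factor per library, with a mean signal per gene, and with log2 fold changes and adjusted p-values of their own comparisons, per the file headers. Those were used only where the authors' deposited table is named; the deposited head mean weights 11 libraries, without SR replicate 2.

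Dividing by the worth of 1 read gave whole reads for 100% of values above 0 (tolerance 0.001). Genes with at least 10 in 3 or more of a tissue's 12 libraries were kept, 12537 in abdomens and 12237 in heads, and all 4 serpins passed in each. Groups were compared with limma 3.58.1 (R 4.3.3, trended prior) on log2(normalized count + 1) in 1 fit of 12 libraries per tissue, with Benjamini-Hochberg adjustment over all genes kept and a threshold of 0.05; fold changes on that scale understate the change of low genes. EdgeR 4.0.16 and DESeq2 1.42.0 on the recovered reads were alternatives; over the comparisons edgeR called 2 to 10322 genes in abdomens and 9 to 2961 in heads. The plan named limma for normalized values and edgeR for raw counts, and the unit decided. Scripts were tested on simulated data. Other alternatives were TMM, a pseudocount of 5, no filter, blocks, fewer groups and leaving out libraries.

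Groups and replicate numbers come from the titles, and nothing says that a number pairs samples. Deviations of SR and GFP male abdomens with the same number went together (correlations over genes of 0.18 to 0.46), and in the other comparisons at least 1 pair was at or below 0.1; the block changed no serpin call. The labels call the libraries biological replicates. Members and lists were chosen with earlier results of these data known. Named genes were all members and, per member and tissue, the 2 genes highest in Pearson's r among genes with a mean of at least 50 and the 2 highest among those with a symbol, not all of which are printed. Reads shared with near-identical paralogs or overlapping genes cannot be resolved in these tables. Intervals of log2 differences come from limma and the spread between libraries. Counting intervals of read ratios, and floors, cover counting error only, since PCR copies of a molecule were not told apart.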

Additional observations from a re-analysis of the deposited data

Results flagged for a closer look

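In abdomens, the change with Md-tra RNAi differed between genotypes for all 4 serpins by the titles, tested as an interaction. The log2 values were 7.73 for SPN9, 6.90 for Spn2, 7.41 for SPN13 and -2.01 for SPN15. By the headers it differed for SPN9 (7.13) and Spn2 (5.69). Each value contains the gap between GFP females and GFP males, so it is not a result separate from that gap. For SPN9, Spn2 and SPN15 no GFP female overlapped any of the 3 male groups, whereas for SPN13 GFP females overlapped N and SR. The values by library are given with each gene above.

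SPN9 of SR stood on opposite sides of GFP females in the 2 tissues, with no overlap in either. It was 7.35 higher in abdomens and 0.70 lower in heads on the log2 scale (a log2 difference of -0.70), and the head difference alone did not pass. N had the same signs against GFP females, 7.65 in abdomens and -0.22 in heads, where the groups overlapped. GFP females minus GFP males was -7.43 in abdomens and 0.13 in heads, again with overlap in heads. In abdomens GFP females lay below every male group. How many of all genes show opposite signs without overlap was not counted. The difference between tissues was not tested, because the tables were normalized separately.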

How the results depend on the processing

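Of 19 called log2 differences of single serpins, 15 kept direction and call in every alternative run, and none changed direction. The exceptions were SPN13 of abdomens under edgeR and SPN15 of N abdomens, given in the report. With the replicate number as a block, the counts of called serpins in abdomens were 4, 4, 3, 1, 0 and 1 in the 6 comparisons of groups, as without it. The correlations over genes of same-numbered libraries were between -0.20 and 0.46.

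The 1 serpin called in N against GFP male abdomens, and the 1 in N against SR, became 0 when blocked by code number, in fits of the compared groups alone and without N replicates 1 and 3, and 0 to 1 without 1 library each. The 0 called in SR against GFP male abdomens became 1 by DESeq2. In heads, the 0 called between GFP females and GFP males became 1 by DESeq2 and in the fit of those groups alone (0 to 1 without 1 library each), that of SR against GFP females 2 by DESeq2, and that of the genotype comparison by the headers 2 by DESeq2 (0 to 1 without 1 library each). The cause was not tested. The fit of the compared groups alone is the same as the full one for the genotype comparisons.

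No difference that changed direction was called in any setting. In abdomens, SPN13 in N against GFP males was 0.57 by edgeR, 0.58 by DESeq2, 0.0334 with a pseudocount of 5, 0.19 without N replicates 1 and 3, and -0.92 to 0.99 without 1 library each. SPN9 there was -0.10 without N replicates 1 and 3 and -0.13 to 0.52 without 1 library, and -0.0144 against SR without those N replicates. In SR against GFP males, SPN15 was 0.00728 under TMM and -0.21 to 0.17 without 1 library, and SPN9 -0.43 to 0.22. In the genotype comparison by the headers SPN15 was -0.36 under TMM, -0.37 by edgeR and -0.0488 to 0.32 without 1 library, and SPN13 -0.53 by edgeR and -0.0428 by DESeq2.

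In heads, Spn2 was -0.33 to 1.57 and SPN9 -0.15 to 0.33 between GFP females and GFP males without 1 library each. In N against GFP females Spn2 was -0.27 by edgeR, -0.25 by DESeq2 and -0.89 to 1.01 without 1 library, and SPN9 -0.43 to 0.0549. In N against GFP males SPN9 was 0.0387 blocked by code number and SPN13 -0.94 to 0.42 without 1 library. In SR against GFP males Spn2 was -0.87 to 0.35. In the genotype comparison by the titles Spn2 was -0.0559 by edgeR, -0.0532 by DESeq2 and -0.49 to 1.41 without 1 library, SPN13 -2.25 to 1.02 and SPN15 -0.29 to 0.31. A lone library left in a group is assumed to vary like the other groups.

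Depth limits Spn2 and SPN13 in N abdomens, where replicates 1 and 3 held 4 and 2 reads of Spn2 and 2 and 30 reads of SPN13, and in GFP female abdomens, where 0 reads allow up to 3.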
